A study of Mus musculus with 3 samples.

Results

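The genes described here belong to the handling of ATP and adenosine outside the cell, though some, such as Adk, act inside it. They are 10 of the 16742 genes listed in any library: Entpd1, Nt5e, Ada, Adk, Pnp, Dpp4, Adora2a, Adora2b, Adora3 and P2rx7. They were chosen by hand from this pathway when their FPKM and expected counts in these libraries were already known, among them the high counts of Nt5e and Ada in leukemia. The values and calls against control are therefore a description, and no call on them counts as a test of these genes. RNA-seq was done on 3 libraries, each pooling 3 mice. The control library held lin- bone marrow cells, left after depletion of cells with mature lineage markers, of wild type C57BL/6 mice that were neither transduced nor transplanted. The TR1 and TR9 libraries held GFP+ bone marrow cells sorted from C57BL/6 mice with leukemia driven by TBLR1-RARα (TR), a fusion of the retinoic acid receptor α, which a retrovirus expressed together with GFP. Each TR line goes back to 1 primary leukemic mouse and was sampled in the third generation of transplants, and the labels give an age of 6 to 8 weeks for all mice. Lineage depletion and GFP sorting thus also separate control from TR and cannot be told apart from the fusion.

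Stressed or dying cells release ATP, which acts on P2X ion channels and P2Y receptors of neighboring cells. CD39, encoded by Entpd1, removes phosphates from ATP and ADP to give AMP, and CD73, encoded by Nt5e, turns AMP into adenosine at the cell surface. Adenosine acts on its own receptors, of which those encoded by Adora2a and Adora2b raise cAMP and dampen many functions of leukocytes. The signal ends when adenosine deaminase (Ada) makes inosine, which purine nucleoside phosphorylase (Pnp) splits further, or when adenosine kinase (Adk) returns adenosine to AMP inside the cell.

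Expected counts, the read numbers that RSEM estimates for each gene, summed to between 5129662 and 5571409 per library. FPKM divides them by transcript length and library total and was used to compare levels between genes. With 1 library per group, no difference has a replicate check. A gene is called higher or lower where the log2 ratio of FPKM is at least 1 in size and an exact Poisson comparison of the reads has a false discovery rate of at most 0.001. These thresholds follow the methods of the study. Such a call compares libraries, not conditions, and the 95% exact intervals given here are those of the ratio of expected counts per library total and cover counting error only. Of the genes in either library, 8.09% were called higher and 13% lower in TR1, and 9.37% higher and 10.8% lower in TR9. Over all genes the log2 ratio to control had its median at −0.29 (TR1) and −0.12 (TR9). With TMM scaling of edgeR, which sets the bulk of genes level, it was −0.04 and −0.01, and 1694 genes were then called higher and 1591 lower in TR1, against 1318 and 2120. Rara, the fusion partner, had FPKM of 3.36 (control), 66.1 (TR1) and 22.0 (TR9), and reads of the mouse gene and of the retroviral transcript cannot be told apart in this value. Tbl1xr1, the gene of TBLR1, had 18.9, 25.8 and 23.2 FPKM and was called in neither line (log2 ratios 0.45 and 0.30). Erythroid markers (7 of 7) and megakaryocyte markers (7 of 7) were called lower in both TR lines, with summed FPKM of 1642 and 953.9 in control and between 2.37 and 3.65 in the TR libraries. Of 8 mast cell, basophil and eosinophil markers 7 were called lower in both, and late granulocyte markers were called higher in both in 7 of 8. In bulk RNA, fewer cells of a type and less RNA per cell cannot be told apart.

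All 10 genes were listed in all 3 libraries, and all but Adora2b had at least 10 expected counts in a library. Entpd1, Nt5e and Ada were called higher in both TR1 and TR9, where 5.67% of all genes were called higher in both. Adk, Dpp4 and P2rx7 were called lower in both, against 8.39% of all genes. Pnp, Adora2b and Adora3 were called in neither line, and Adora2a was called lower in TR1 alone. The counts were 3 higher and 4 lower in TR1, and 3 higher and 3 lower in TR9.

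**Figure D1:**
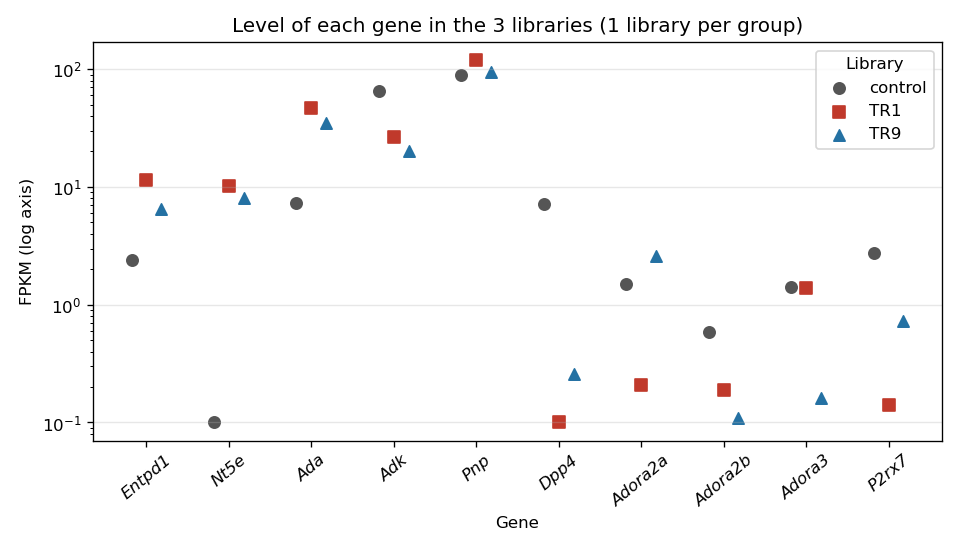
FPKM of the 10 genes (x axis) on a log axis in control (circles), TR1 (squares) and TR9 (triangles), 1 library per point. Nt5e moves from 0.10 FPKM in control to 10.1 and 8.05, while Dpp4 moves from 7.19 to 0.10 and 0.26.

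The promoters of 3 genes are shown, since they belong to the gene with the largest rise (Nt5e), the deaminase (Ada) and the gene with the largest fall (Dpp4). Each run is the 250 bases before the start site in RefSeq on GRCm38.p6, 5′ to 3′ along the gene, with CG dinucleotides in capitals. Nt5e lies at chr9:88327359-88327608 (plus strand), Ada at chr2:163750240-163750489 (minus strand) and Dpp4 at chr2:62412232-62412481 (minus strand).
Nt5e: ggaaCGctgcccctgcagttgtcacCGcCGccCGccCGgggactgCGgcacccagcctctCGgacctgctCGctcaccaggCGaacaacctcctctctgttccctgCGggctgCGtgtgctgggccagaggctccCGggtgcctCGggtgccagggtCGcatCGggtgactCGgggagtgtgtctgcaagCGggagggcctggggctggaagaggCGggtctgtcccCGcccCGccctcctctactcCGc
Ada: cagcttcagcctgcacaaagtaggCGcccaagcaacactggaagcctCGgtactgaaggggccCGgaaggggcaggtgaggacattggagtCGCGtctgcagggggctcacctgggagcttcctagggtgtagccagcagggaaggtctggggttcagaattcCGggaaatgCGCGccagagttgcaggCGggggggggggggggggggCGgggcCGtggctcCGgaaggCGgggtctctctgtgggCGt
Dpp4: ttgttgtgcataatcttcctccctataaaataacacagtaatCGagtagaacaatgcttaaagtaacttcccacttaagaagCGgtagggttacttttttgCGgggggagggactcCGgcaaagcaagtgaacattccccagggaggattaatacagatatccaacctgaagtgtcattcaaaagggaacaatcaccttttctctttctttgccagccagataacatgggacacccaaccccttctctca
The Nt5e window held 21 CG dinucleotides, that of Ada 14 and that of Dpp4 4, against a median of 6 over 32851 RefSeq promoters (quartiles 2 and 16). GC content in these 3 was 72%, 67.2% and 43.6%. Of the other genes called alike in both lines, Adk (lower) had windows with 15 and 24 CG dinucleotides. Those of P2rx7 (lower) held 6 and 4, and those of Entpd1 (higher) 18 and 8. A link between CG number and direction was not tested. Since the fusion keeps a retinoic acid receptor, the windows from 250 bases before to 50 after the start were searched for retinoic acid response elements. The search took 1 exact spelling, 2 direct copies of AGGTCA with 5 or 2 bases between them, on both strands. Other spellings were not searched for. None of the 12 windows that RefSeq has for 9 of the genes held such a pair, but neither spacing occurs in more than 0.00913% of all promoters. Single copies of AGGTCA, found in 16.3% of promoters, occurred in 1 of 12 windows, that of the downstream start of P2rx7. No window held TGACGTCA, the letters of the cAMP response element (1.79% of promoters) or the hypoxia core ACGTG (19.6%). The PU.1 letters GAGGAAGT (3.20% of promoters) were in the Adora3 window and in the same P2rx7 window. The C/EBP letters TTGCGCAA, held by 0.183% of promoters, were found in Pnp alone, at −132 to −125 from the start. The Pnp window at chr14:50944053-50944302 (plus strand, 250 bases before the start) is shown with those letters in capitals.
Pnp: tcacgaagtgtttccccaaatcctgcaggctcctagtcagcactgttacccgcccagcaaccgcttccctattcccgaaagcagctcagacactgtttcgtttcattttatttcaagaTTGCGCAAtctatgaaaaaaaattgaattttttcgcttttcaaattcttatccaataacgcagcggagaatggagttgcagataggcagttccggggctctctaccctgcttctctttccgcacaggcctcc
A match or its absence describes these letters in these windows only.

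Nt5e, the enzyme that completes the release of adenosine from ATP outside the cell, had expected counts of 2 (control), 204 (TR1) and 149 (TR9). Both TR libraries were far above control, where the gene was near the limit of detection. The log2 ratio of FPKM to control was 6.66 in TR1 (95% interval of the count ratio 4.78 to 9.71) and 6.33 in TR9 (4.44 to 9.38). These wide intervals come from the 2 counts in control. In control 5.52% of the listed genes had a lower FPKM than Nt5e, against 57.6% in TR1 and 50.2% in TR9. The gene lies on chromosome 9 from 88327197 to 88372092 on the plus strand, and no other gene overlaps it. Places of genes are those of GENCODE M21 on GRCm38, while the submitters' processing notes name mm9 and the files hold no coordinates. By these places, the windows shown above for Nt5e and Pnp, taken before RefSeq starts, lie within the genes.

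Entpd1, which supplies the AMP that CD73 uses, had 56, 271 and 141 expected counts in control, TR1 and TR9. Its FPKM were 2.41, 11.5 and 6.49, highest in TR1 and intermediate in TR9. The log2 ratio to control was 2.25 in TR1 (1.83 to 2.70) and 1.43 in TR9 (0.97 to 1.90). Between the lines, Entpd1 was lower in TR9 by a log2 ratio of −0.82 (−1.13 to −0.52), short of a call. It is on chromosome 19 from 40612366 to 40741602, plus strand, and 2 processed pseudogenes and a sense intronic RNA lie within it. Within control, Entpd1 was 24.1-fold above Nt5e in FPKM (log2 ratio 4.59, interval 2.67 to 7.67), whereas the log2 ratio of the pair was 0.18 in TR1 (−0.09 to 0.45) and −0.31 in TR9 (−0.65 to 0.03). Both of the latter intervals include 0, so the order of these enzymes was not resolved in either leukemia library.

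Ada, which deaminates adenosine to inosine, had 68 expected counts in control against 441 (TR1) and 304 (TR9), or 7.32, 46.6 and 35.0 FPKM. Both TR libraries were several-fold above control, with log2 ratios of 2.67 in TR1 (2.30 to 3.07) and 2.26 in TR9 (1.88 to 2.66). Adk, the kinase that competes with Ada for adenosine within the cell, moved the other way, from 640 expected counts in control to 267 (TR1) and 185 (TR9). Its log2 ratios were −1.28 (−1.49 to −1.08) and −1.68 (−1.94 to −1.46). The order of both enzymes was thus exchanged. In control, Adk had 64.7 FPKM against 7.32 for Ada, an 8.84-fold difference (log2 ratio of Ada over Adk −3.14, interval −3.53 to −2.78). In TR1, Ada was above Adk by 1.74-fold (0.80, 0.58 to 1.03), and in TR9 by the same log2 ratio of 0.80 (0.53 to 1.07). Ada is on chromosome 2 from 163726584 to 163750239, minus strand, with no overlapping gene, and Adk on chromosome 14 from 21052574 to 21448569, plus strand.

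**Figure D2:**
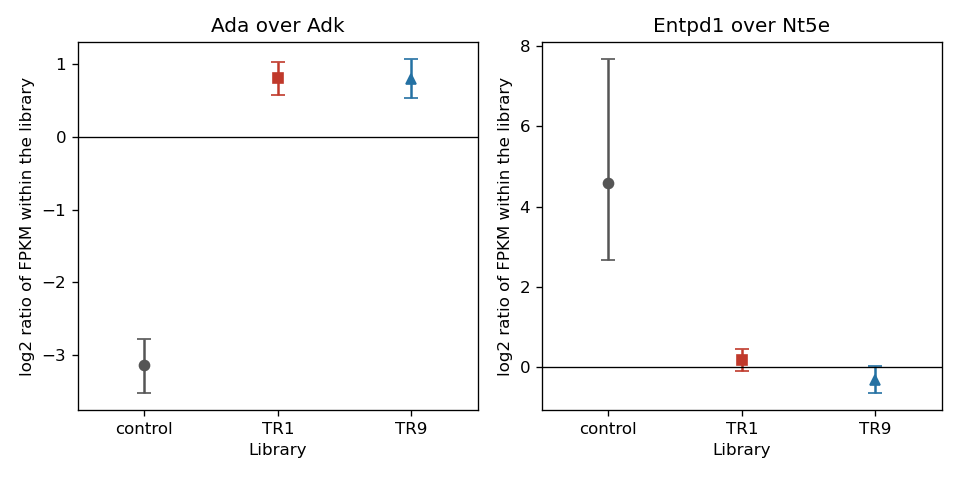
Log2 ratio of the FPKM of 2 genes within each library, Ada over Adk on the left and Entpd1 over Nt5e on the right, with the 95% exact counting interval as bars. Ada over Adk is −3.14 in control and 0.80 in both TR libraries, and Entpd1 over Nt5e is 4.59 in control and 0.18 and −0.31 in TR1 and TR9.

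Pnp, the next enzyme after Ada, was the most abundant of the 10 genes in every library, with FPKM of 89.6 (control), 118 (TR1) and 93.8 (TR9). All 3 libraries were close together. The log2 ratio was 0.40 in TR1 (0.31 to 0.51) and 0.06 in TR9 (−0.04 to 0.17), neither of them called. The expected counts of Pnp (1452.81, 1954.62 and 1421.99) were not whole, because RSEM divided reads between Pnp and its near copy Pnp2, which overlaps the Pnp locus on the same strand of chromosome 14. Each of the pair is therefore uncertain alone. Summed, they had 2058, 2722 and 1949 counts, which are whole, with log2 ratios of 0.38 in TR1 (0.30 to 0.47) and 0.02 in TR9 (−0.07 to 0.11).

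Dpp4 encodes CD26, a surface peptidase that in humans also anchors adenosine deaminase to the cell. Its expected counts were 197.02 (control), 2 (TR1) and 7 (TR9), and it thus nearly disappeared from both TR libraries. The log2 ratio of FPKM was −6.17 in TR1 and −4.79 in TR9, the largest fall among the 10 genes in each line. By counts it was −6.64 (−9.70 to −4.77) and −4.72 (−6.05 to −3.65). Both scales differ because the transcript length that RSEM assigned to Dpp4 was 4947.85 bases for control, 3654 for TR1 and 5268 for TR9. The gene is on chromosome 2 from 62330073 to 62412231, minus strand, with an antisense gene on the other strand, and the sources do not say whether counting used strand. Some markers of other cells were also lower in the TR libraries. Among 8 mast cell, basophil and eosinophil markers the summed FPKM were 1157 (control), 79.4 (TR1) and 90.5 (TR9), with Fcer1a at 0 in TR1. Over 7 stroma markers they were 508.4, 16.3 and 46.7, a sum carried by Col1a1 (265, 2.68 and 1.27 FPKM) and Col1a2 (222, 0.90 and 5.81). Of these 7 markers Cxcl12, Col1a1, Col1a2 and Lum were called lower in both lines, with Lum at 0 in both, whereas Lepr was called higher in TR1 (1.49 to 3.29 FPKM) and Pdgfrb (4.87 to 33.9) and Kitl (0.56 to 4.17) in TR9. Levels of T cell markers in control varied. Cd3e had 2 expected counts there, 0 for TR1 and 1 for TR9, whereas Cd247 had 98, 58 and 64 (9.4, 5.83 and 6.72 FPKM). Of 8 T cell markers only Il7r was called lower in both lines and Thy1 was called higher in both, the latter at 3.55, 168 and 82.8 FPKM, so the summed level of the list was 18.2, 175.9 and 91.9. The part of such cells in the values of Dpp4 and of the receptors was not tested.

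P2rx7 encodes an ATP-gated channel that opens at high ATP and is known for activating the inflammasome in macrophages. Its expected counts were 63 (control), 4 (TR1) and 10 (TR9), so both TR libraries were below control. By counts, the log2 ratio was −4.00 in TR1 (−5.92 to −2.57) and −2.56 in TR9 (−3.69 to −1.59). By FPKM it was −4.30 and −1.92. Here too the assigned length differed, at 4129.86 bases (control), 4931 (TR1) and 2662.67 (TR9), over the 4 transcripts that the files list for P2rx7. The 10 counts in TR9 do not allow a statement on which transcript was used. P2rx7 is on chromosome 5 from 122643911 to 122691432, plus strand, and a microRNA gene lies within it. The log2 ratio of FPKM between TR9 and TR1 was 2.38, but the interval of the count ratio of 1.44 ran from −0.35 to 3.57, and no call was made.

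**Figure D3:**
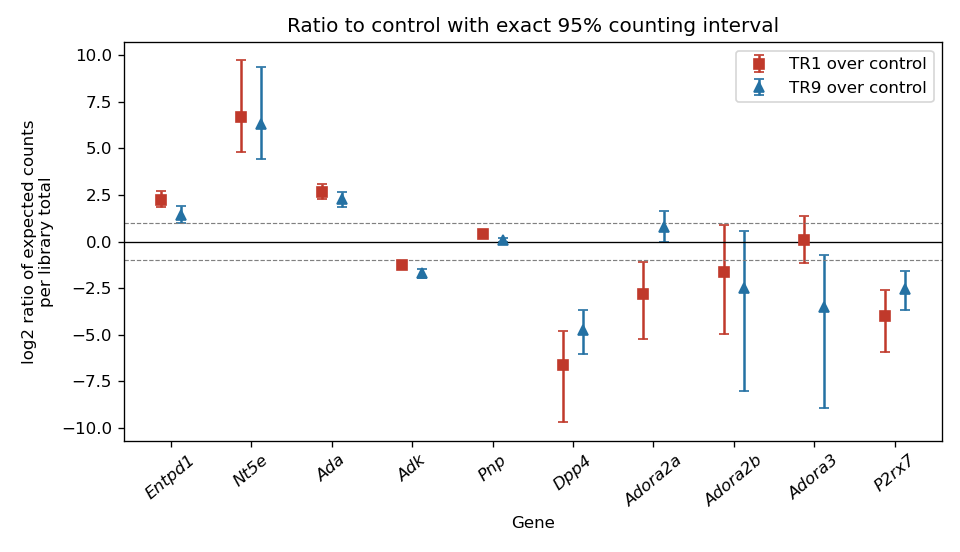
Log2 ratio of expected counts per library total (y axis) of TR1 (squares) and TR9 (triangles) over control for the 10 genes, with 95% exact intervals for counting error and dashed lines at −1 and 1. Nt5e, Ada and Entpd1 lie above 0 in both lines, Adk, Dpp4 and P2rx7 below 0 in both, and Adora2a lies at −2.83 in TR1 and 0.79 in TR9.

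The adenosine receptors were all low, at no more than 2.61 FPKM in any library. Adora2a, whose receptor restrains neutrophils and T cells by way of cAMP, had 21, 3 and 34 expected counts in control, TR1 and TR9. TR1 was thus the low library and TR9 the high one. The log2 ratio of FPKM to control was −2.85 in TR1 (interval of the count ratio −5.22 to −1.09), a call that was lost when libraries were scaled by TMM (−2.60), by the upper quartile (−2.63) or by the median of ratios (−2.61). In TR9 it was 0.79 (−0.03 to 1.65). Compared directly, Adora2a was higher in TR9 than in TR1 by a log2 ratio of 3.64 (1.95 to 5.97), the single call among the 10 genes between the TR libraries, where 4.34% of all genes were called higher and 2.31% lower. Adora2a is on chromosome 10 from 75316877 to 75334784, plus strand, with no overlapping gene.

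Adora2b, a receptor of low affinity for adenosine, had 6, 2 and 1 expected counts in control, TR1 and TR9. The log2 ratios of −1.64 (−4.95 to 0.88) and −2.42 (−8.01 to 0.56) had count intervals that include 0, so a difference was not detectable at this depth. Adora3, known from mast cells and neutrophils, had 12, 13 and 1 counts. The log2 ratio of FPKM was −0.02 in TR1, where the ratio of counts was 0.09 (−1.16 to 1.36), and −3.15 in TR9 (−8.91 to −0.73), not called. Its values are uncertain for another reason. Of the 3 transcripts that the files count under Adora3, RefSeq (GRCm38.p6) gives 2 to the overlapping gene Tmigd3. In TR9 the assigned length of 1219 bases equals that of 1 of these 2 in GENCODE M21, whereas it was 1550.53 bases in control and 1673.97 in TR1. The fourth receptor gene, Adora1, had 0, 1 and 0 counts.

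Between the TR lines, the 5 abundant genes were all slightly lower in TR9. Beside Entpd1, the log2 ratio of TR9 over TR1 was −0.42 for Ada (−0.63 to −0.20), −0.41 for Adk (−0.69 to −0.13), −0.34 for Pnp (−0.44 to −0.24) and −0.33 for Nt5e (−0.65 to −0.02). None reached a call, and the median over all genes was 0.13. Ordered by FPKM, Pnp led in every library. Control followed with Adk, Ada, Dpp4, P2rx7 and Entpd1, while both TR lines followed with Ada and Adk, then Entpd1 and Nt5e in either order. Dpp4 was the fourth in control and the last in TR1.

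Likeness in level over the 3 libraries was measured by the Euclidean distance of log2(FPKM + 1). For Nt5e and Ada it was taken among 7772 genes with at least 10 FPKM in a library. Since Nt5e itself reached only 10.1 FPKM, genes that peaked just below it were left out. Nearest to Nt5e in this pool were Pdzrn3 (0.13, 11.4 and 10.3 FPKM in control, TR1 and TR9), Fas (0.25, 9.96 and 10.7) and Oas1g (0.41, 10.6 and 9.74). Closest to Ada were Mefv (7.62, 50.9 and 37.6), Casp4 (7.18, 53.3 and 34.1) and Ceacam1 (7.19, 38.4 and 36.1). For Dpp4 they were Khdrbs3 (7.20, 0.09 and 0.20), Tgfb1i1 (6.70, 0.06 and 0.25) and Rbpms (6.63, 0.15 and 0.19), among 12393 genes with at least 1 FPKM in a library. With only 3 libraries, such likeness is a description of these levels.

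Wider lists of the pathway held 102 genes, of which 99 were listed in a library. Among the 89 of them that are not among the 10 genes above, 7 (7.87%) were called higher and 15 (16.9%) lower in both TR1 and TR9, beside 5.67% and 8.39% of all genes. For all 99, 16 were called higher and 24 lower in TR1, beside 8.09% and 13% of all genes. With TMM scaling they were 19 and 17, beside 1694 and 1591 of 16282 genes. In TR9, 13 of 98 were called higher and 21 lower, beside 9.37% and 10.8% of all genes. Between TR9 and TR1, 4 of 90 were called higher and 7 lower, beside 4.34% and 2.31% of all genes.

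**Figure D4:**
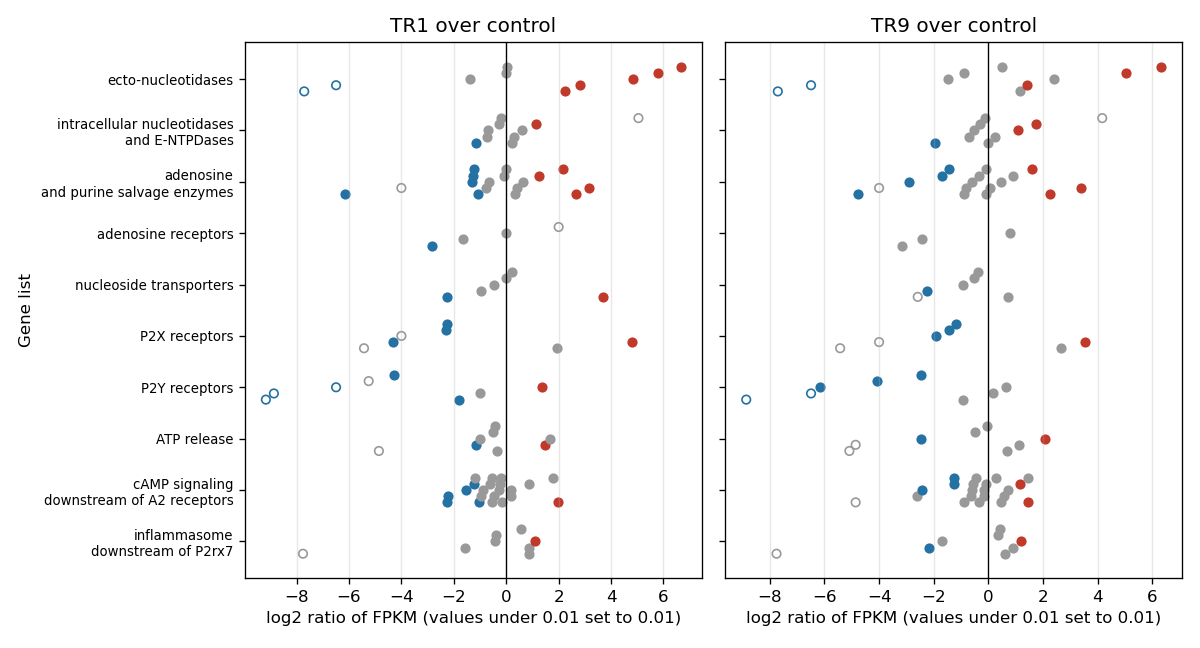
Log2 ratio of FPKM to control (x axis) in TR1 (left) and TR9 (right) for each gene of the 10 pathway lists (y axis). Red points were called higher, blue lower and gray neither, and open points are genes at 0 in 1 of the 2 libraries, whose place rests on the floor of 0.01 FPKM; the P2Y row holds 5 genes called lower in each line.

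Of 10 listed surface nucleotidases, 5 were called higher and 2 lower in TR1, and 3 and 2 in TR9. Of all genes, 8.09% were called higher and 13% lower in TR1, and 9.37% and 10.8% in TR9. The median log2 ratios of the list were 1.13 and 0.83, beside −0.29 and −0.12 over all genes. Entpd1 and Nt5e, chosen with their values known, are on this list and were called higher in both lines. The counts and medians of the list thus partly rest on that choice, and Acpp was the only other gene called higher in both. Acpp, a phosphatase that can also make adenosine from AMP outside the cell, rose beside Nt5e from 12 expected counts to 387 (TR1) and 413 (TR9), with log2 ratios of FPKM of 4.82 and 5.04. Its level of 15.5 and 18.1 FPKM in the TR libraries was above that of Nt5e in both. Bst1, an enzyme that uses NAD, had 1, 58 and 5 counts and was lower in TR9 than in TR1 (−3.40, interval −5.09 to −2.11). Entpd3, a relative of CD39, had 14, 100 and 7 counts. Alpl, the alkaline phosphatase of bone, and Enpp3, a marker of basophils, had 29 and 14 counts in control, whereas TR1 and TR9 held 0 of either. Against 3 counts in the library at 0, TR1 was at least 9.81-fold lower for Alpl and TR9 at least 9.03-fold lower, and for Enpp3, whose calls were lost with a pseudocount of 1 FPKM, the bounds were 4.74-fold and 4.36-fold. Among nucleotidases inside the cell, Entpd5 was called higher in both (1.15 and 1.73) and Entpd6 lower in both (−1.17 and −1.97), though its call in TR1 was lost when libraries were scaled by TMM (−0.92), by the upper quartile (−0.96) or by the median of ratios (−0.93), and 8 of 10 were not called in TR1.

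The list of adenosine and purine salvage held 17 genes, among them the peptidase Dpp4. Ada, Adk, Pnp and Dpp4 on it were chosen with their values known, so the shares and medians of the list partly rest on that choice. Ada, Xdh and Gda were called higher in both lines (17.6%), and Adk, Dpp4, Ahcy and Ampd3 lower in both (23.5%). Of all genes, 5.67% were called higher and 8.39% lower in both. The median log2 ratio of the list was −0.10 (TR1) and −0.33 (TR9), or −0.05 and −0.22 without Ampd1, which had 2 counts in control and 0 in TR. Gda, guanine deaminase, had FPKM of 20.2 (control), 180 (TR1) and 210 (TR9) (log2 ratios 3.15 and 3.38), though its counts were not whole. Xdh, xanthine dehydrogenase, which makes uric acid in purine breakdown, had 5.32, 24.1 and 15.9 FPKM. Ahcy, which gives adenosine from S-adenosylhomocysteine within the cell, had 115, 49.2 and 41.7 FPKM, and its call in TR1 was lost with TMM (−0.97) and the median of ratios (−0.98). Ampd3, an AMP deaminase, had 23.0, 11.0 and 3.10 FPKM and was lower in TR9 than in TR1 by −1.83 (−2.24 to −1.42). Its call in TR1 against control was lost with each of these scalings, the upper quartile and a pseudocount of 1 FPKM. Of 6 transporters that move nucleosides over the membrane, Slc29a1 (ENT1) was lower in both, at 68.4, 14.3 and 14.5 FPKM. Slc28a2, a concentrative transporter, was high in TR1 alone, at 11.4, 146 and 18.7 FPKM, with counts that were not whole, and TR9 was lower than TR1 by −2.97 (−3.13 to −2.82).

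Of 7 P2X genes 1 was called higher and 3 lower in each line, with P2rx7, chosen with its values known, among the lower. Of 8 P2Y genes 1 was called higher in TR1, none in TR9, and 5 lower in each. Over all genes, 8.09% were called higher and 13% lower in TR1, and 9.37% and 10.8% in TR9. With genes at 0 placed at the ratio that 3 counts would give, or left out where no bound can be had, the median log2 ratio was −1.36 (TR1) and −0.75 (TR9) for P2X and −2.03 and −2.29 for P2Y. With the FPKM floor it was −2.29 and −1.45 for P2X and −4.76 and −3.27 for P2Y. Besides P2rx7, P2rx1 fell from 15.4 FPKM to 3.15 and 5.65 and P2rx4 from 10.9 to 2.25 and 4.79. P2rx3, known from sensory neurons, went the other way, from 11 expected counts to 308.92 and 119.97 (log2 ratios of FPKM 4.80 and 3.56), with the counts in TR not whole. In TR9 it was lower than in TR1 (−1.24, −1.56 to −0.94). Of the P2Y genes, P2ry1, P2ry10, P2ry12, P2ry13 and P2ry14 were called lower in both lines and none higher in both, with the calls of P2ry10 lost at a pseudocount of 1 FPKM. P2ry12, the ADP receptor of platelets, had 74, 0 and 1 expected counts, at least 25-fold lower in TR1. P2ry14 had 47, 0 and 0 counts. The summed FPKM of 7 megakaryocyte and platelet markers was 953.9 (control), 3.65 (TR1) and 2.62 (TR9), with Pf4 at 0 in both, and its part in the values of platelet receptors was not tested. Among 8 genes for the release of ATP, 1 was called higher and 1 lower in each line, beside the shares over all genes given above. Slc17a9, the vesicular nucleotide transporter, was called higher in both, at 3.73, 10.4 and 15.6 FPKM. The channel Panx1 was higher in TR9 than in TR1 (1.12, 0.74 to 1.51, a call lost with TMM at 0.99) and Gja1 was lower (−2.09, −2.56 to −1.65).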

How the data were processed

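RNA-seq was analysed in 3 libraries (control, TR1 and TR9), 1 per group, each from pooled RNA of 3 mice. The authors mapped filtered reads (BWA and Bowtie) and estimated the level of RefSeq transcripts by RSEM; the submitters' processing notes name mm9, and versions are not given in the sources used here. The expected count of each gene, an estimated count that need not be whole, was deposited without normalization, and FPKM were deposited as the authors scaled them with RSEM. A gene not listed was taken as 0. Of 16742 NCBI Gene IDs, 16698 were matched to the RefSeq table of GRCm38.p6.

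Depth was 5488778 (control), 5571409 (TR1) and 5129662 (TR9) counts, and 3 counts were taken as the floor. FPKM under 0.01 were set to 0.01 for log2 ratios. Expected counts, rounded, entered an exact Poisson test conditional on their sum, adjusted by Benjamini and Hochberg over all genes in either library, and no p-value is printed. Intervals are exact (Clopper-Pearson). The calls were tested on simulated data with counting error alone, so this test does not cover the spread between mice. The genes named were the 10 members, listed genes called alike in both lines or between them, the 4 adenosine receptors and the 3 genes nearest to Nt5e, Ada and the member that was lowest against control. Members and lists were chosen with earlier results of these data known. Gene lists were written by hand. Results were also computed with TMM of edgeR 4.0.16 (R 4.3.3), a pseudocount of 1 FPKM, a floor of 0.001 FPKM, the median of ratios as in DESeq2, the upper quartile, the ratio of expected counts, a minimum of 10 counts, a false discovery rate of 0.05, a log2 ratio of at least 2, and the fold alone. The software was Python 3.11.15 with pandas 2.3.3, scipy 1.17.1, matplotlib 3.10.9 and numpy 2.4.6.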

Additional observations from a re-analysis of the deposited data

Results flagged for a closer look

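The expected counts of Adora2a lay below control in TR1 and above it in TR9. The difference from control in TR9 was not called (log2 ratio 0.79, interval −0.03 to 1.65), and the call in TR1 was lost when libraries were scaled by TMM, the median of ratios or the upper quartile. The TR libraries differed in the direct comparison of reads, with a log2 ratio of FPKM of 3.64 in TR9 against TR1 (21, 3 and 34 expected counts in control, TR1 and TR9). The counts of Entpd3 lay the opposite way, called higher than control in TR1 (log2 ratio 2.81) and not called in TR9 (−0.90, −2.45 to 0.50), with a log2 ratio of −3.72 in TR9 against TR1 (interval −5.07 to −2.62, with 14, 100 and 7 expected counts). With 1 library per line, whether the lines differ beyond the spread between mice was not tested.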

How the results depend on the processing

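No paired analysis was possible because each group has 1 library and the labels number no replicates, and for the same reason no library could be left out. Ada and Nt5e were called higher and Dpp4 lower in TR1 and in TR9 under each of the 10 alternatives. Entpd1 lost its call in TR9, Adk in both lines and P2rx7 in TR9 only where a log2 ratio of at least 2 was asked for. With that threshold, 1 of the 10 genes was called lower in TR9. Over the 99 pathway genes, 10 were then called higher and 14 lower in TR1, 6 and 13 in TR9, and 1 and 4 in TR9 against TR1. Of all genes with that threshold, 685 of 16282 were called higher and 1133 lower in TR1. In TR9 they were 738 and 928 of 16303, and in TR9 against TR1 283 and 135 of 15706. By the fold alone, 5 of the 10 genes were lower in TR9, beside 3767 of all 16303 genes. In TR9 against TR1, 3 of the 10 were higher and 1 lower (Adora3), beside 2669 and 1772 of all 15706 genes. Of the pathway genes 34 were then lower in TR9, and 12 higher and 15 lower in TR9 against TR1. Adora3 was also called lower in TR9 against TR1 (1 gene) at a false discovery rate of 0.05. A pseudocount of 1 FPKM left 2 pathway genes higher in TR9 against TR1, and TMM scaling also left 2, beside 535 and 551 of all 15706 genes. The log2 ratio of Adora3 in TR1 turned from −0.02 to 0.23 with TMM, 0.22 with the median of ratios, 0.19 with the upper quartile and 0.0939 by expected counts, on 12 and 13 counts; the count ratio leaves out the length that RSEM assigned, and the cause of the other shifts was not tested. Of the single values of the 10 genes under alternatives, 277 kept direction and call, 7 lost the call, 8 gained it and 4 turned (Adora3 above). Depth limits Adora2a, Adora2b and Adora3 most, with 34 or fewer expected counts in every library, and Adora2b drops out where at least 10 counts are asked for.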

Other observations

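Of 21 genes of cAMP signaling, 1 (4.76%) was called higher and 2 (9.52%) lower in both TR1 and TR9. These shares were close to the 5.67% and 8.39% of all genes. Median log2 ratios were −0.53 and −0.35 (−0.26 in TR9 without 1 gene at 0 there), beside −0.29 and −0.12 over all genes. Adcy3, an adenylyl cyclase, rose from 1.77 FPKM (control) to 6.87 (TR1) and 4.83 (TR9). Another cyclase, Adcy6, had 21.1, 4.55 and 8.90 FPKM, and Pde4b, a phosphodiesterase that degrades cAMP, had 7.65, 1.58 and 3.22. Adcy7 was lower in TR9 than in TR1 by a log2 ratio of −1.46 (95% interval −1.75 to −1.19), and Adcy9 was higher by 1.35 (count interval 0.71 to 2.01), a call lost with a pseudocount of 1 FPKM (0.88).

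Of 8 genes of the inflammasome, to which P2X7 signals, none was called higher or lower in both lines, beside 5.67% and 8.39% of all genes. Their median log2 ratios were 0.08 and 0.40, beside −0.29 and −0.12 over all genes. Chosen after their values were seen, the sensor Nlrp3 had expected counts of 29 (control), 10 (TR1) and 6 (TR9), and Il18 of 10, 0 and 0. Casp1, with 17.0, 30.7 and 38.6 FPKM, was called higher in TR9, and Gsdmd, with 18.9, 40.6 and 35.6 FPKM, in TR1. Ninj1 was higher in TR9 than in TR1, by a log2 ratio of 1.03 (0.66 to 1.41), a call lost with TMM (0.90), the upper quartile (0.93), the median of ratios (0.92) and a pseudocount of 1 FPKM (0.99).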
